A study of Homo sapiens with 24 samples.

Results

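The comparison was of neurons exposed to methylmercury with neurons given the vehicle alone, and it rested on 6 of the 24 libraries of the series: the 3 labelled Methyl_mercury and the 3 labelled DMSO. The cells were of LUHMES, a conditionally immortalised human line from embryonic mesencephalon, and had been turned into neurons of dopaminergic type with tetracycline, cAMP and GDNF. The Methyl_mercury cultures received 0.5 µM methylmercury chloride for 6 h, and all cultures of every group, DMSO included, received 1% DMSO. The other 6 groups, with 3 libraries each, received 2 µM ziram, 5 µM MS275, 5 µM paraquat, 5 µM MPP, 1 µM rotenone or 1 µM 6-HD. All libraries came from 1 cell line, and the labels number 3 samples per group without saying how the cultures were separated, so p-values measure the spread between these samples. The raw counts summed to 14.3, 24.7 and 33.4 megareads in DMSO replicates 1, 2 and 3 and to 23.4, 14.5 and 32.9 megareads in Methyl_mercury replicates 1, 2 and 3.

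Methylmercury is an organic form of mercury that enters brain tissue and binds tightly to the thiol and selenol groups of proteins. Thiol-reactive compounds are known to modify KEAP1, which releases the transcription factor NRF2 to act at antioxidant response elements of genes for glutathione synthesis, thioredoxin reduction and quinone detoxification. Metals that displace zinc from proteins are known to act through the zinc sensor MTF1, which binds metal response elements of the metallothionein genes and of the zinc exporter gene SLC30A1. Metallothioneins are small cysteine-rich proteins that bind zinc, copper, cadmium and mercury.

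Of 18852 genes tested, 42 were higher in methylmercury (0.223%) and 12 were lower (0.0637%). The test was the quasi-likelihood test of edgeR, fitted over all 24 libraries with Benjamini-Hochberg adjustment over all genes tested, and a gene is said to have risen or fallen where its adjusted p was under 0.05. The 11 genes that rose at least 2-fold were metallothioneins (MT1E, MT2A, MT1X and MT1F), zinc exporters (SLC30A1 and SLC30A2), genes of the oxidative stress response (HMOX1, NQO1, PIR and GCLM) and the golgin GOLGA8A. On the log2 scale, the increases ran from 0.31 to 5.11 with a median of 0.72, and the decreases from -0.38 to -1.38 with a median of -0.52. Of the 12 genes that fell, 1 did so by at least 2-fold. In all 54 genes the 3 libraries of one group lay beyond the 3 of the other, as they did for 9.9% (higher) and 9.95% (lower) of all genes tested.

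The methylmercury libraries differed from each other, and Methyl_mercury replicate 2 did so in the largest share of genes. Among genes above 5 CPM (counts per megaread of the scaled library total), 6.45% lay more than 0.5 log2 units from the mean of the other methylmercury libraries, against 1.07% in replicate 1, 3.82% in replicate 3 and 0.373% to 1.64% in DMSO. Its deviations ran with the GC content of the transcripts across genes, with a Spearman rho of -0.62, while the rho of replicate 3 was 0.69 and that of replicate 1 was -0.0077. Genes are not independent replicates, and these correlations are given as a description. Replicate 2 was the most extreme of the 3 methylmercury libraries in 36 of the 42 genes that rose and in 12 of the 12 that fell. These genes were called with replicate 2 in the fit, which favours genes where it is extreme. The share over all genes tested was not computed.

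Without replicate 2, 7 genes rose (0.0355% of 19715) and 0 fell. By edgeR, 982 genes then had an unadjusted p under 0.05, against 2174 with all libraries. The 7 genes were NQO1, SLC30A1, MT1F, HMOX1, TXNRD1, F3 and MT2A. All 54 genes kept their direction without replicate 2, with a median log2 change of 0.60 for the genes that had risen and -0.42 for those that had fallen. Because the libraries of the groups did not overlap in these genes, leaving out 1 library could hardly reverse a direction. The kept directions are therefore no separate support. Without DMSO replicate 2 the calls were as few, 6 higher and 1 lower (RN7SL2). The other libraries moved the counts too: 37 higher and 6 lower without Methyl_mercury replicate 1, 117 and 53 without Methyl_mercury replicate 3, 16 and 4 without DMSO replicate 1, and 27 and 6 without DMSO replicate 3. The 6 genes F3, HMOX1, MT1F, NQO1, SLC30A1 and TXNRD1 were called in each of the 6 fits that left out 1 library.

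The loss of calls without replicate 2 held for the fit over all libraries. When the Methyl_mercury and DMSO libraries were fitted alone, edgeR called 57 genes higher (0.347% of 16426) and 16 lower (0.0974%), 0.444% in all. The same fit without replicate 2 called 63 higher and 20 lower, and 44 of the 54 genes were among them. With limma-voom and sample quality weights, which give replicates 2 and 3 of methylmercury low weight (0.504 and 0.537, against 2.58 for replicate 1), 819 genes were higher and 861 lower, 8.91% of all tested. Below, values without replicate 2 are from the fit over all libraries. Counts of list members at an unadjusted p under 0.05 all include replicate 2 and were not made without it.

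The median GC content was 43.7% for the 42 genes that rose and 56.6% for the 12 that fell, against 48.6% for all genes tested. A fit with GC offsets, which removes from each library its own trend of expression on GC content and was added after these deviations had been seen, called 219 genes higher (1.16%) and 109 lower (0.578%), 1.74% in all. All 54 genes were among them. Their median GC content was 48.0% for the genes higher and 46.6% for those lower. With GC offsets and without replicate 2, 28 genes were higher (0.142%) and 5 lower (0.0254%), and 24 of the 54 were called.

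**Figure D1:**
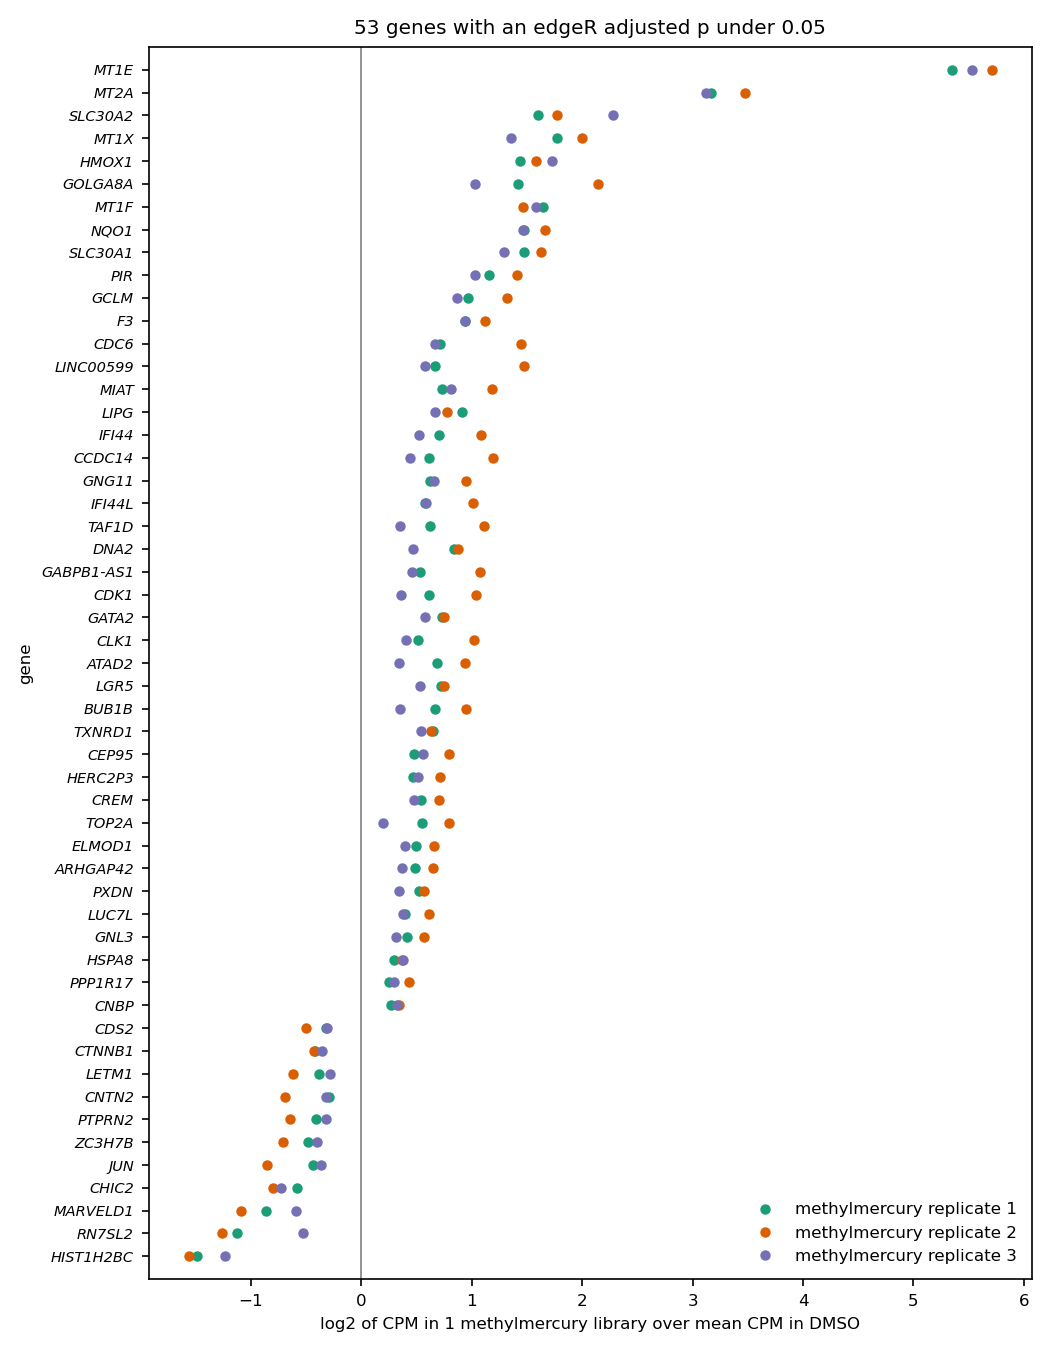
Log2 of the CPM in each methylmercury library over the mean CPM of the 3 DMSO libraries (x axis) for 53 of the 54 genes with an edgeR adjusted p under 0.05 (y axis, ordered by fitted change), with 1 colour per replicate. Replicate 2, in orange, lies farthest from 0 in 36 of the 42 genes that rose and in all 11 shown that fell, and every point of a gene lies on the same side of 0.

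The metallothionein genes lie together on chromosome 16, and 8 of the 11 listed passed the filter on low counts. Of these 8, 4 rose, 4 did not pass the test and 0 fell, against 0.223% and 0.0637% of all genes tested that rose and fell. The filter used all 24 libraries. MT1A, with 0 reads in these 6 libraries, and MT1H, with almost none, can have passed it only through other groups. For MT1A and MT1H the test could give no call. Because near-identical copies of a gene can exchange or lose reads, the split of reads between single metallothioneins is uncertain. The summed metallothionein level was 9.68, 12 and 10.6 CPM in the 3 DMSO libraries and 44.5, 44.7 and 40.8 CPM in the 3 methylmercury libraries. The groups did not overlap, and the ratio of the means was 4.03, or 3.96 without replicate 2. The exact two-sided permutation test gave p = 0.1, the smallest value that 3 against 3 libraries allow.

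MT1E (chromosome 16, 56625475 to 56627112, GRCh38) was nearly silent in the vehicle, with 0, 2 and 6 reads in DMSO against 84, 67 and 131 reads in methylmercury. In CPM these were 0, 0.0808 and 0.177 against 3.51, 4.51 and 3.98, and every methylmercury library was far above every DMSO library. MT1E rose by 5.11 ± 1.06 on the log2 scale (SE of the fit, adjusted p = 0.0218), and without replicate 2 by 5.04 (adjusted p = 0.104).

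MT2A (chromosome 16, 56608199 to 56609497), the main metallothionein of most human tissues, stood at 0.356, 0.606 and 0.65 CPM in DMSO and 4.81, 5.99 and 4.68 CPM in methylmercury. It rose by 3.13 ± 0.56 (adjusted p = 0.00778), and without replicate 2 by 3.03 (adjusted p = 0.0432). MT1X (chromosome 16, 56682424 to 56684196) was already present in the vehicle, at 2.63, 2.26 and 1.77 CPM, and reached 7.57, 8.88 and 5.68 CPM. Its rise was 1.75 ± 0.32 (adjusted p = 0.00892), and without replicate 2, its highest library, 1.61 (adjusted p = 0.103). MT1F (chromosome 16, 56657694 to 56660698) had the highest counts of the family in both groups, 6.69, 9.01 and 7.95 CPM in DMSO and 24.7, 21.7 and 23.6 CPM in methylmercury. Replicate 2 was here the lowest of the methylmercury libraries, and the rise was 1.55 ± 0.17 with it (adjusted p = 1.09e-06) and 1.60 without it (adjusted p = 3.39e-06).

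The other members did not pass. MT1G, the metallothionein named in the title of the series, had 0, 1 and 1 reads in DMSO and 79, 51 and 91 reads in methylmercury. By summed counts scaled to the library totals this was a ratio of 112 with an exact 95% interval of 30.6 to 930, which covers counting error only. MT1G did not pass over all genes (adjusted p = 0.12, and 0.613 without replicate 2), although the libraries did not overlap. It passed with DESeq2 (adjusted p = 0.023), with limma-voom and sample quality weights (adjusted p = 0.033) and with edgeR on the Methyl_mercury and DMSO libraries alone (adjusted p = 8.31e-06). MT1M had 0 reads in DMSO and 14, 2 and 3 reads in methylmercury. Against a floor of 3 reads for the whole DMSO group this is at least 6.42-fold higher, a bound that rests mostly on replicate 1. Its adjusted p by edgeR was 0.333, and it can have passed the filter only through other groups. MT1H gave 1 read in 1 methylmercury library, and MT1A, MT1B, MT3 and MT4 had 0 reads in all 6 libraries. MT1B, MT3 and MT4 were not tested.

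Of 9 zinc exporter genes tested, which carry zinc out of the cytosol, 2 rose and 7 did not pass. Among 12 zinc importer genes 0 passed in either direction. Of all genes tested 0.223% rose and 0.0637% fell, 0.286% in all, and 0 of 12 is near that share. SLC30A1 (chromosome 1, 211571568 to 211578742), the zinc exporter of the plasma membrane, stood at 27.8, 24.6 and 24 CPM in DMSO and 70.8, 78.6 and 62.4 CPM in methylmercury. The lowest methylmercury library had more than 2 times the level of the highest DMSO library. The increase was 1.47 ± 0.14 (adjusted p = 7.68e-08), and 1.39 without replicate 2 (adjusted p = 1.26e-06).

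SLC30A2 (chromosome 1, 26037252 to 26046133), an exporter that loads zinc into vesicles, was low, at 1.07, 0.889 and 0.65 CPM in DMSO and 2.64, 2.96 and 4.22 CPM in methylmercury, highest in replicate 3. It rose by 1.98 ± 0.42 (adjusted p = 0.0253), and without replicate 2 its change was 2.05 (adjusted p = 0.104). The other 7 exporters ranged from -0.73 (SLC30A3) to 0.26 (SLC30A5) on the log2 scale. The importer with the smallest p was SLC39A4, at 2.7, 2.99 and 2.66 CPM in DMSO and 1.17, 1.28 and 2.37 CPM in methylmercury (log2 difference -0.76 ± 0.33, adjusted p = 0.367).

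Promoter windows of 4 genes that rose, chosen because they hold a core, are shown since MTF1 and NRF2 are known by the short elements they bind. The sequences are from RefSeq (GRCh38.p14), run 5′ to 3′ on the strand of the gene, end at or before the annotated start, and leave out bases that GENCODE 29 places in an exon. Capitals mark the core of the metal response element, searched as TGCNCNC on both strands, in MT1X, SLC30A1 and SLC30A2, and the core of the antioxidant response element, searched as TGACNNNGC on both strands, in TXNRD1.
MT1X, chr16:56682220-56682423, plus strand: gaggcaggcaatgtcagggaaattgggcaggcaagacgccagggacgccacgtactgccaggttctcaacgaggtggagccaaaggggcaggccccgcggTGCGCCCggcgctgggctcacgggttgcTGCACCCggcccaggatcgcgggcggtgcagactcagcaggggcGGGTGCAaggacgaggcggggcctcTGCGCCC
SLC30A1, chr1:211579162-211579411, minus strand: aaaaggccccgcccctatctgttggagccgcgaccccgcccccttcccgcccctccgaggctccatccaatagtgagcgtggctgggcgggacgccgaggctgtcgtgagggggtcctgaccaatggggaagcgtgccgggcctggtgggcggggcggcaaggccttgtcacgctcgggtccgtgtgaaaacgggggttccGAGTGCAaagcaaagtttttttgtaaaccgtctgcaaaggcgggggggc
SLC30A2, chr1:26046134-26046368, minus strand: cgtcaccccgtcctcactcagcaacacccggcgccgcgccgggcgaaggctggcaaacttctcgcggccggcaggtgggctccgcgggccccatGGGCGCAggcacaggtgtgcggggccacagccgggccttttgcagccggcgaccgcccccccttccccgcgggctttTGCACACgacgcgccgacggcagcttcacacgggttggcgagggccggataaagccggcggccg
TXNRD1, chr12:104215529-104215778, plus strand: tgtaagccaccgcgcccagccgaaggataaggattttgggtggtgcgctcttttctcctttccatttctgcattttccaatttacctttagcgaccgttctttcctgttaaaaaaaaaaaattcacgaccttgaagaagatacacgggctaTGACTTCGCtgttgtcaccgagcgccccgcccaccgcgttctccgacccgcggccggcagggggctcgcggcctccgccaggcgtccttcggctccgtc

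The MT1X window of 204 bases held 4 metal response cores, as many as or more than which were found in 0.948% of the 35116 promoters of the table over the same stretch. SLC30A1 held 1 in 250 bases, which 49.1% of promoters matched, and SLC30A2 held 2 in 235 bases, which 16.8% matched. The TXNRD1 window is the more upstream of 2 starts in the table and held 1 antioxidant response core in 250 bases, which 10.9% of promoters matched. The 250 bases before the other TXNRD1 start, not shown, also held 1 antioxidant response core, and 0 metal response cores. A match of one core may overlap a match of the other. The TXNRD1 window that is shown also held 1 metal response core, not in capitals. The SLC30A1 window also held 1 antioxidant response core, not in capitals, and so did that of MT1X. The start used for SLC30A1 is that of RefSeq and lies upstream of the gene span given above. For the other genes searched, exon bases were not left out of the 250 bases. NQO1 held 0 matches of either core, and PIR and F3 held 1 metal response core and 0 antioxidant response cores each. GCLM held 1 of each, and MT2A held 7 metal response cores and 1 antioxidant response core. Of all promoters, 49.1% held at least 1 metal response core in 250 bases and 0.51% at least 5. At least 1 antioxidant response core was held by 10.9%. A match of these letters is a description and does not show that a factor was bound.

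**Figure D2:**
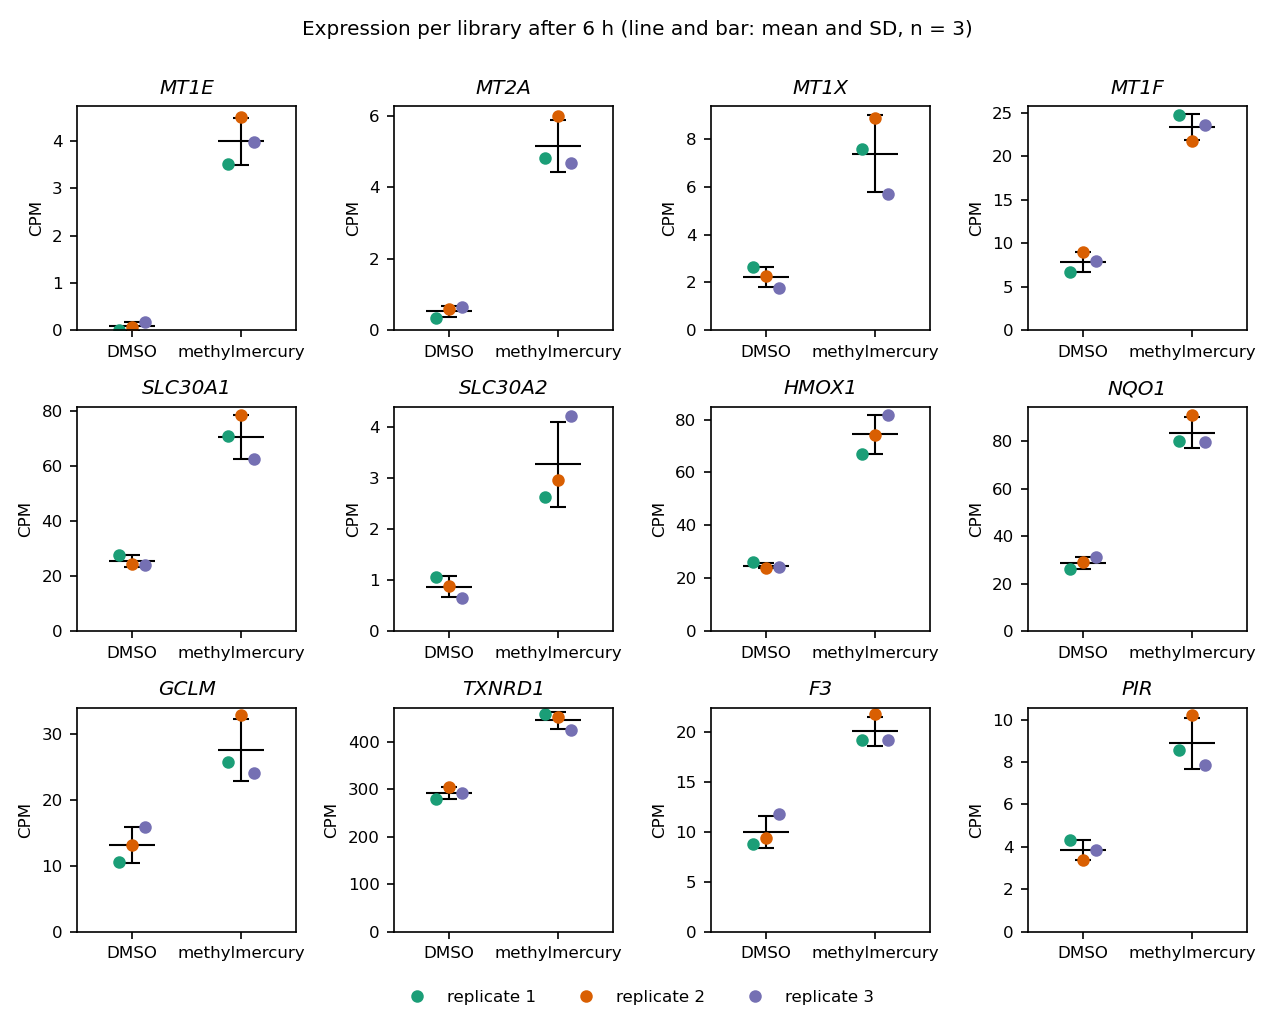
CPM (y axis, from 0, a separate scale per gene) in the 3 DMSO and 3 methylmercury libraries (x axis) for 12 genes that rose, coloured by replicate number, with the mean as a line and the SD as a bar (n = 3). In each of the 12 genes the lowest methylmercury library lies above the highest DMSO library.

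Genes of the oxidative stress response that are known NRF2 targets rose in several of its branches, though few members of each. In the list of NRF2 detoxification and NADPH genes, 3 of 26 tested rose (NQO1, HMOX1 and PIR), 23 did not pass and 0 fell. Of all genes tested, 0.223% rose and 0.0637% fell. The median log2 change of the list was 0.11, and 0.035 without replicate 2, against -0.0054 over all genes tested with all libraries. NQO1 (chromosome 16, 69706996 to 69726951), which reduces quinones by transfer of a pair of electrons, stood at 26.1, 29.3 and 31 CPM in DMSO and 80.2, 91.2 and 79.5 CPM in methylmercury. The libraries of each group were close together, and NQO1 had the smallest p of all genes, with a rise of 1.53 ± 0.13 (adjusted p = 1.32e-08). Without replicate 2 the rise was 1.47 (adjusted p = 2.17e-07).

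HMOX1 (chromosome 22, 35380361 to 35394214) encodes heme oxygenase 1, which breaks heme down to biliverdin, carbon monoxide and iron. Its level was 26, 24 and 24.3 CPM in DMSO and 67.2, 74.2 and 81.8 CPM in methylmercury, highest in replicate 3. HMOX1 rose by 1.59 ± 0.17 (adjusted p = 7.24e-07), and by 1.59 without replicate 2 (adjusted p = 3.39e-06). It was the sole member of 13 tested that passed in the list of iron and heme handling, against 0.286% of all genes tested. The ferritin chains, which store iron and are also known NRF2 targets, did not pass, with log2 differences of -0.45 for FTH1 (adjusted p = 0.314) and 0.18 for FTL (adjusted p = 0.474).

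PIR (chromosome X, 15384799 to 15493564), an iron-binding nuclear protein, stood at 4.34, 3.39 and 3.84 CPM in DMSO and 8.58, 10.2 and 7.87 CPM in methylmercury. It rose by 1.21 ± 0.21 (adjusted p = 0.00447), and without replicate 2, the highest library, its change was 1.10 (adjusted p = 0.0687). In the pentose phosphate pathway, which supplies NADPH, 2 enzymes gave values without passing: PGD differed by -0.13 (adjusted p = 0.583) and TKT by -0.027 (adjusted p = 0.965). Malic enzyme ME1, another source of NADPH, differed by 0.93 (adjusted p = 0.103).

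In the glutathione system 1 of 25 genes tested rose, 24 did not pass and 0 fell, against 0.223% and 0.0637% of all genes tested that rose and fell. The median log2 change was 0.11, and 0.093 without replicate 2. The gene that rose was GCLM (chromosome 1, 93885205 to 93909456), the modifier subunit of glutamate-cysteine ligase, the rate-limiting enzyme of glutathione synthesis. It stood at 10.5, 13.2 and 16 CPM in DMSO and 25.9, 33 and 24.1 CPM in methylmercury, without overlap. Its rise was 1.04 ± 0.19 (adjusted p = 0.00778), and 0.90 without replicate 2 (adjusted p = 0.104). GCLC, the catalytic subunit, differed by 0.41 (adjusted p = 0.144). SLC7A11, the cystine carrier, was low, at 2.28, 4.6 and 4.02 CPM in DMSO and 6.53, 6.86 and 5.1 CPM in methylmercury (log2 difference 0.70 ± 0.26, adjusted p = 0.263). The members with unadjusted p under 0.05 numbered 8 higher and 1 lower of 25, against 5.83% higher and 5.7% lower among all genes tested.

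In the thioredoxin system 1 of 18 genes tested rose and 0 fell, against 0.223% and 0.0637% of all genes tested. TXNRD1 (chromosome 12, 104215779 to 104350305) encodes the cytosolic thioredoxin reductase, a selenoprotein with a selenocysteine in its active site. It was among the most highly expressed genes that rose, at 279.9, 304 and 291 CPM in DMSO and 457, 452 and 424 CPM in methylmercury. The increase of 0.61 ± 0.071 had an adjusted p of 5.77e-06, and it was 0.59 without replicate 2 (adjusted p = 8.33e-05). Its partner thioredoxin (TXN) differed by 0.16 (adjusted p = 0.553), the mitochondrial reductase TXNRD2 by -0.0019 (adjusted p = 0.998) and peroxiredoxin 1 (PRDX1) by 0.32 (adjusted p = 0.103).

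TXNRD1 was also the sole member that passed among 20 selenoprotein genes tested, whose median log2 change was -0.053. Of all genes tested, 0.286% passed. The selenium-dependent glutathione peroxidases GPX1 and GPX4 differed by -0.13 (adjusted p = 0.721) and -0.24 (adjusted p = 0.43). None of the 9 regulators of the NRF2 pathway passed by edgeR, of which 1 was higher at an unadjusted p under 0.05, a share near the 5.83% of all genes tested. That gene was MAFG, a partner of NRF2 on DNA, at 48.3, 54.7 and 53.1 CPM in DMSO and 65.1, 56.6 and 65.7 CPM in methylmercury (log2 difference 0.26 ± 0.086, adjusted p = 0.189).

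F3 (chromosome 1, 94529225 to 94541800), the gene of tissue factor, which starts the extrinsic pathway of coagulation, belonged to no list. It stood at 8.82, 9.41 and 11.8 CPM in DMSO and 19.2, 21.8 and 19.3 CPM in methylmercury. It rose by 0.99 ± 0.15 (adjusted p = 0.000996), and by 0.93 without replicate 2 (adjusted p = 0.013). GOLGA8A, a golgin of a family with near-identical copies whose reads may be split, stood at 2.92, 3.35 and 4.23 CPM in DMSO and 9.37, 15.5 and 7.14 CPM in methylmercury. Replicate 2 was well above both other methylmercury libraries. GOLGA8A rose by 1.56 ± 0.29 (adjusted p = 0.00892), and without replicate 2 its change was 1.21 (adjusted p = 0.191).

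Of 22 heat shock genes tested 1 rose, 21 did not pass and 0 fell, against 0.223% and 0.0637% of all genes tested that rose and fell. The median log2 change was 0.19, and 0.18 without replicate 2. HSPA8, the constitutive cytosolic HSP70 chaperone, stood at 2818, 2608 and 2480.1 CPM in DMSO and 3227, 3397 and 3415 CPM in methylmercury, and has processed copies elsewhere in the genome that could take reads. It rose by 0.34 ± 0.064 (adjusted p = 0.00949), with 0.33 and an adjusted p of 0.104 without replicate 2. The inducible HSP70 gene HSPA1B differed by -0.46 (adjusted p = 0.257), HSPH1 by 0.38 (adjusted p = 0.139) and DNAJB1 by 0.16 (adjusted p = 0.486). HSPA1A, the near-identical copy of HSPA1B, did not pass the filter on low counts. Reads that match both copies may be lost or split, so the level of inducible HSP70 is uncertain. At an unadjusted p under 0.05, 10 of the 22 heat shock genes were higher and 1 was lower, against 5.83% higher and 5.7% lower among all genes tested.

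**Figure D3:**
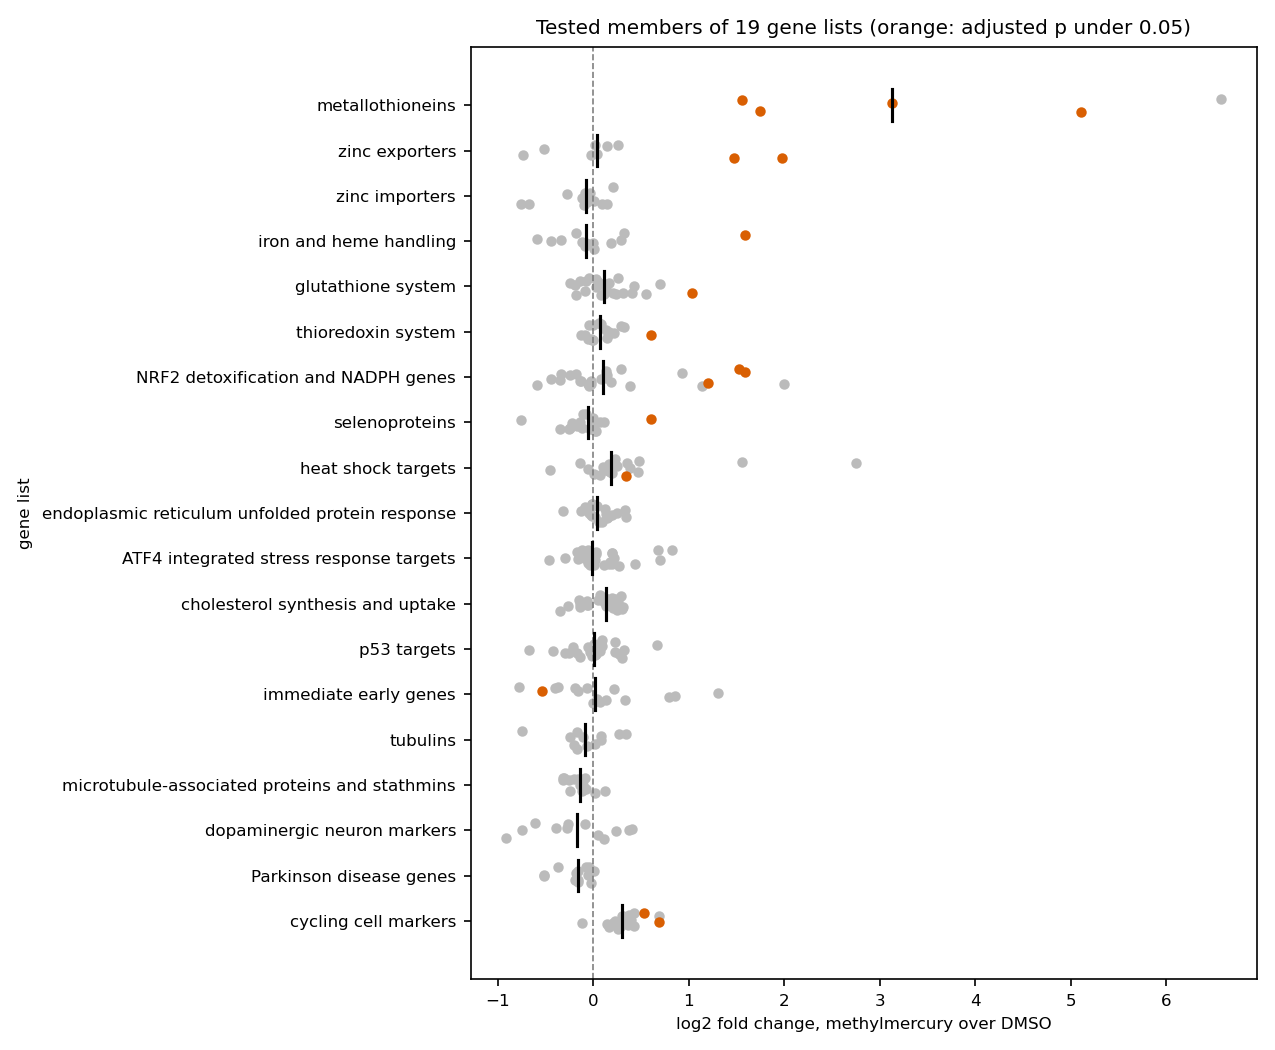
Log2 fold change of methylmercury over DMSO (x axis) for the tested members of 19 gene lists (y axis) that had reads in both groups, in orange where the edgeR adjusted p was under 0.05, with the median of the members shown as a black line and the median of all genes tested as a dashed line. The median of the 5 metallothioneins plotted is 3.13, and the medians of the other 18 lists lie between -0.17 and 0.30.

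Of 21 markers of cycling cells 2 rose, 19 did not pass and 0 fell, against 0.223% and 0.0637% of all genes tested that rose and fell. CDK1, the kinase that drives entry into mitosis, stood at 36.4, 34.6 and 39.8 CPM in DMSO and 56.3, 75.7 and 47.4 CPM in methylmercury. TOP2A, a topoisomerase of dividing cells, stood at 135, 131 and 157 CPM in DMSO and 206, 244 and 162 CPM in methylmercury. In both genes replicate 2 was the highest library and replicate 3 the lowest of the methylmercury libraries, and the groups did not overlap. CDK1 rose by 0.69 ± 0.15 (adjusted p = 0.0365) and TOP2A by 0.53 ± 0.12 (adjusted p = 0.0365). Without replicate 2 both calls ended, with changes of 0.49 (adjusted p = 0.673) and 0.38 (adjusted p = 0.665).

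The summed level of the 21 cycling markers was 1084, 1076 and 1152 CPM in DMSO and 1331, 1455 and 1209 CPM in methylmercury. All 3 methylmercury libraries were above the DMSO libraries, and the ratio of the means was 1.21, or 1.15 without replicate 2. The median log2 change was 0.30, and 0.20 without replicate 2. At an unadjusted p under 0.05 and with replicate 2 included, 13 of the 21 were higher and 0 lower. Among all genes tested 5.83% were higher and 5.7% lower. In these bulk libraries a larger number of dividing cells and more of their RNA per cell cannot be told apart. Outside the list, CDC6, which licenses replication origins, rose by 0.95 ± 0.19 (adjusted p = 0.018), the helicase-nuclease DNA2 by 0.72 ± 0.15 (adjusted p = 0.0229), and the spindle checkpoint kinase BUB1B by 0.65 ± 0.14 (adjusted p = 0.0296). None of these kept its call without replicate 2, with adjusted p of 0.447, 0.267 and 0.544.

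IFI44L and IFI44, neighbouring genes on chromosome 1 that interferon induces, also rose. IFI44L stood at 174, 126 and 130.4 CPM in DMSO and 213, 288 and 215 CPM in methylmercury, and IFI44 at 20.8, 21.1 and 22.2 and 34.8, 45.3 and 30.7 CPM. Replicate 2 was the highest library for both. The rises were 0.74 ± 0.12 (adjusted p = 0.00445) and 0.78 ± 0.15 (adjusted p = 0.0155), and without replicate 2 the changes were 0.58 (adjusted p = 0.104) and 0.61 (adjusted p = 0.301).

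CLK1, LUC7L and MIAT were picked from the called genes after their values were seen. CLK1, a kinase of splicing factors, stood at 61.8, 57.9 and 69.7 CPM in DMSO and 90.3, 128 and 83.8 CPM in methylmercury. Replicate 2 was well above both other methylmercury libraries. Its rise was 0.67 ± 0.15 (adjusted p = 0.045), with 0.46 and an adjusted p of 0.721 without replicate 2. LUC7L, a splicing factor of the U1 particle, rose by 0.46 ± 0.10 (adjusted p = 0.0273, and 0.447 without replicate 2). The long noncoding RNA MIAT stood at 56.3, 40.6 and 48.4 CPM in DMSO and 80.2, 110.0 and 84.9 CPM in methylmercury, and rose by 0.92 ± 0.18 (adjusted p = 0.012, and 0.202 without replicate 2).

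Also picked after their values were seen were GATA2, a zinc finger transcription factor, at 18.1, 19.2 and 20.9 CPM in DMSO and 32.1, 32.5 and 28.9 CPM in methylmercury, and CREM, a cAMP-responsive factor, at 25.4, 27.9 and 31.9 and 41.2, 46.2 and 39.5 CPM. GATA2 rose by 0.68 ± 0.15 (adjusted p = 0.0296) and CREM by 0.56 ± 0.11 (adjusted p = 0.012). Both calls ended without replicate 2, with adjusted p of 0.267 and 0.191, while the sizes moved little, to 0.65 and 0.50. LGR5, a receptor for R-spondins in the Wnt pathway, rose by 0.66 ± 0.15 (adjusted p = 0.0343, and 0.301 without replicate 2).

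The 12 genes that fell did so by less than the leading genes rose, and 0 of them kept a call without replicate 2. CTNNB1, which encodes beta-catenin, the adhesion protein and Wnt effector, was the most highly expressed, at 2012, 2204 and 2176 CPM in DMSO and 1589, 1582 and 1668 CPM in methylmercury. The 3 methylmercury libraries lay close together and below every DMSO library. CTNNB1 changed by -0.40 ± 0.077 (adjusted p = 0.012), and by -0.39 without replicate 2 (adjusted p = 0.123). JUN, a subunit of the AP-1 transcription factor, stood at 85.7, 89.2 and 84.6 CPM in DMSO and 63.7, 47.9 and 67.2 CPM in methylmercury, lowest in replicate 2. It changed by -0.53 ± 0.12 (adjusted p = 0.0328), and by -0.40 without replicate 2 (adjusted p = 0.544).

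JUN was the sole member that passed among 16 immediate early genes tested, against 0.286% of all genes tested. The related JUND and JUNB differed by -0.40 (adjusted p = 0.204) and -0.37 (adjusted p = 0.251), and FOS, at under 1 CPM in every library, by 0.85 (adjusted p = 0.771). CNTN2, an axonal adhesion protein, stood at 1078, 1039.9 and 909 CPM in DMSO and 825, 624 and 806 CPM in methylmercury. Its highest methylmercury library was below its lowest DMSO library, and it changed by -0.42 ± 0.091 (adjusted p = 0.0294, and 0.521 without replicate 2).

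CHIC2, a palmitoylated membrane protein, changed by -0.70 ± 0.13 (adjusted p = 0.00892), from 17 ± 1.5 CPM to 10.4 ± 0.788 CPM (SD, n = 3 libraries). The zinc finger gene ZC3H7B changed by -0.53 ± 0.10 (adjusted p = 0.012), PTPRN2, a protein of dense-core vesicles, by -0.46 ± 0.10 (adjusted p = 0.0446), and LETM1, an ion exchanger of the inner mitochondrial membrane, by -0.42 ± 0.094 (adjusted p = 0.0403). MARVELD1 changed by -0.82 ± 0.17 (adjusted p = 0.0218) and CDS2, an enzyme of phospholipid synthesis, by -0.38 ± 0.076 (adjusted p = 0.0207). Without replicate 2 these 6 genes had adjusted p of 0.104 (CHIC2), 0.221 (ZC3H7B), 0.641 (PTPRN2), 0.641 (LETM1), 0.28 (MARVELD1) and 0.301 (CDS2).

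The largest decreases were in HIST1H2BC and RN7SL2. HIST1H2BC, a histone H2B gene with many near-identical copies, stood at 6.47, 3.68 and 3.58 CPM in DMSO and 1.63, 1.55 and 1.94 CPM in methylmercury (log2 change -1.38 ± 0.31, adjusted p = 0.0412). RN7SL2, an RNA of the signal recognition particle with many copies in the genome, stood at 1018, 605 and 648 CPM in DMSO and 346, 315 and 525 CPM in methylmercury (log2 change -0.94 ± 0.19, adjusted p = 0.0207). Without Methyl_mercury replicate 2 the changes were -1.32 for HIST1H2BC (edgeR adjusted p = 0.349) and -0.80 for RN7SL2 (edgeR adjusted p = 0.310). DMSO replicate 1 was the highest library for both. Without DMSO replicate 1 neither passed, with changes of -1.07 (edgeR adjusted p = 0.291) and -0.67 (edgeR adjusted p = 0.269). The share of all counts in histone genes was 0.0425% to 0.0491% in DMSO and 0.0325% to 0.0361% in methylmercury. The share in RN7SL genes was 0.0620% to 0.102% and 0.0341% to 0.0536%, and that in all mitochondrial genes 1.35% to 1.87% and 1.11% to 1.17%. The 13 mitochondrial genes that encode proteins overlapped between the groups. They summed to 2844, 2894 and 2946 CPM in DMSO and 2900, 2736 and 2970 CPM in methylmercury. The ratio of their means was 0.991, or 1.01 without replicate 2. The part of the differences in these shares in the decreases was not tested.

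Of the 40 gene lists examined, 30 had 0 members that passed by edgeR, in 549 tested entries. Of these entries, 74 (13.5%) were higher and 44 (8.01%) lower at an unadjusted p under 0.05, against 5.83% and 5.7% of all genes tested. DESeq2 called 16 higher (2.91%) and 7 lower (1.28%), against 1.17% and 0.477% of all genes tested, 1.64% in all. Limma-voom with sample quality weights called 49 (8.93%) and 36 (6.56%), against 4.34% and 4.57% of all genes tested. The lists covered the unfolded protein response of the endoplasmic reticulum, ATF4 targets, proteasome subunits, cytosolic ribosomal proteins, p53 targets, the BCL2 family, cholesterol synthesis, hypoxia targets, glycolysis, mitochondrially encoded proteins, tubulins, calcium handling and glutamate receptors among others. Their medians lay between -0.17 and 0.30 on the log2 scale, against -0.0054 over all genes tested. The 0.30 is from the microglia and macrophage markers, of which 2 genes of few reads were tested. The next highest median was 0.13, that of cholesterol synthesis and uptake. Of 25 genes of cholesterol synthesis and uptake, 9 were higher and 2 lower at an unadjusted p under 0.05, against 5.83% higher and 5.7% lower among all genes tested. The median log2 change of these 25 genes was 0.13, and 0.16 without replicate 2. Squalene epoxidase, SQLE, had the smallest p of these, at 321, 305 and 309.6 CPM in DMSO and 375, 374 and 369.6 CPM in methylmercury (log2 difference 0.26 ± 0.072, adjusted p = 0.12).

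Methylmercury is known to disturb microtubules, calcium and glutamate signalling, and members of those lists gave values without passing in the edgeR fit over all libraries. DESeq2 called 1 of 12 tubulins and 1 of 22 genes of the glutamate list lower and 0 higher. Among all genes tested it called 0.477% lower and 1.17% higher. With edgeR on the Methyl_mercury and DMSO libraries alone, 1 tubulin was lower and 0 higher, against 0.0974% and 0.347% of all genes tested. The tubulin with the smallest p was TUBB4A, at 18.6, 22.9 and 19.7 CPM in DMSO and 11.6, 11.3 and 13.5 CPM in methylmercury (log2 difference -0.75 ± 0.20, adjusted p = 0.11). The 15 genes of microtubule-associated proteins and stathmins had a median log2 change of -0.13, and -0.12 without replicate 2. Of the 15, 6 were lower and 0 higher at an unadjusted p under 0.05, against 5.7% lower and 5.83% higher among all genes tested. Among the 6 was STMN4 (-0.30 ± 0.10, adjusted p = 0.179). GRIN2D, a subunit of NMDA receptors, differed by -0.62 ± 0.16 (adjusted p = 0.0998), and GRIA2, a subunit of AMPA receptors, by 0.37 ± 0.12 (adjusted p = 0.205). The large neutral amino acid transporters, which carry the cysteine complex of methylmercury into cells, had 5 tested members and 0 that passed.

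The cells carried some, but not all, markers of dopaminergic neurons. TH, which encodes tyrosine hydroxylase, stood at 55.2, 51.4 and 45.9 CPM in DMSO and 38.7, 32.2 and 44.7 CPM in methylmercury (log2 difference -0.39 ± 0.13, adjusted p = 0.217). The transcription factor genes LMX1A and FOXA2 had 0 reads in all 6 libraries, and 9 of the 16 markers were at 1 CPM or more in all 6. The summed level of these markers was 858, 748 and 790.0 CPM in DMSO and 811, 767 and 886 CPM in methylmercury, with overlap. Neuronal markers were abundant, with summed levels of 12169.8, 11221 and 10553 CPM and 10886, 10864 and 10865 CPM.

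Markers of other cell types ranged from absent to well above TH. The 10 markers of microglia and macrophages summed to at most 1.42 CPM in any of the 6 libraries, with ITGAM, C1QA and C1QB at 0 reads. Of the 12 markers of astrocytes and oligodendrocytes, SOX10 and MOG were at 0 reads, and the summed level was 181, 196 and 181 CPM in DMSO and 158, 146 and 162 CPM in methylmercury. Most of that sum came from OLIG2, at 116, 119 and 108 CPM in DMSO and 92.3, 85.6 and 96.7 CPM in methylmercury (adjusted p = 0.145). The 11 endothelial and mesenchymal markers summed to 111, 107 and 102 CPM in DMSO and 115, 92.8 and 125 CPM in methylmercury, and the 11 neural precursor markers to 214 ± 12.3 CPM and 206 ± 5.63 CPM (SD, n = 3), both with overlap. The sums of astrocyte and oligodendrocyte markers were lower in all 3 methylmercury libraries, and the part of this in the results was not tested.

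Methylmercury was next set against the other toxicants, in comparisons that use the same methylmercury libraries but not the DMSO libraries. Ziram, a zinc dithiocarbamate fungicide and the other compound with a metal, was given at 2 µM, 4 times the dose of methylmercury, so the contrast is between these 2 exposures and not between the compounds at 1 dose. Against ziram 65 genes were higher in methylmercury (0.345%) and 140 lower (0.743%), 1.09% in all, and without replicate 2 these were 7 (0.0355%) and 43 (0.218%), 0.254% in all. Against the mean of the other 6 toxicants 858 were higher (4.55%) and 733 lower (3.89%), 8.44% in all, and without replicate 2 these were 114 (0.578%) and 95 (0.482%), 1.06% in all. That mean rests on 18 libraries, so its counts are not on a par with those against DMSO or ziram. It also includes MS275, and with MS275 left out of the mean 749 genes differed, with replicate 2 in the fit.

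Metallothioneins were far higher in ziram. MT2A stood at 318 ± 49.1 CPM in ziram (SD, n = 3) against 5.16 ± 0.721 CPM in methylmercury, a log2 difference of -5.97 (adjusted p = 3.47e-12). MT1F differed less, with 136 ± 17.3 CPM in ziram against 23.3 ± 1.49 CPM in methylmercury and a log2 difference of -2.55 (adjusted p = 3.47e-12). HMOX1 was also higher in ziram, at 179.6 ± 63.5 CPM (log2 difference -1.27, adjusted p = 1.03e-05). All 3 differences kept their call without replicate 2, with adjusted p of 1.4e-10, 1.4e-10 and 0.000167.

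SLC30A1 stood at 89.4 ± 1.49 CPM in ziram and 70.6 ± 8.11 CPM in methylmercury, which did not pass (log2 difference -0.34 ± 0.13, adjusted p = 0.248). SLC30A2 was higher in ziram, at 16.8 ± 2.88 CPM (log2 difference -2.34, adjusted p = 0.000158, and 0.00248 without replicate 2). NQO1 differed in the other direction without passing, at 62.4 ± 8.04 CPM in ziram and 83.6 ± 6.54 CPM in methylmercury (log2 difference 0.42 ± 0.12, adjusted p = 0.104).

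TXNRD1 and F3 were higher in methylmercury than in ziram. TXNRD1 stood at 321 ± 2.62 CPM in ziram against 444 ± 17.9 CPM in methylmercury (log2 difference 0.47, adjusted p = 0.000195, and 0.00234 without replicate 2). F3 stood at 11.7 ± 1.5 CPM against 20.1 ± 1.47 CPM (log2 difference 0.77, adjusted p = 0.00455, and 0.049 without replicate 2). JUN was lower in methylmercury, at 93.7 ± 9.02 CPM in ziram against 59.6 ± 10.3 CPM (log2 difference -0.65, adjusted p = 0.00208, and 0.0474 without replicate 2).

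Against the mean of the other 6 toxicants, NQO1 was higher in methylmercury by 1.37 (adjusted p = 7.85e-12), SLC30A1 by 1.34 (adjusted p = 5.05e-11) and TXNRD1 by 0.70 (adjusted p = 1.27e-10). GCLM was higher by 0.92 (adjusted p = 4.86e-05) and F3 by 0.73 (adjusted p = 8.96e-05), and JUN, lower in methylmercury, differed by -0.86 (adjusted p = 7.7e-07). These 6 calls held without replicate 2. MT2A did not pass against that mean (0.14, adjusted p = 0.851), a mean that includes ziram. In the 5 groups other than ziram, NQO1 ranged from 21.3 ± 1.11 CPM in MS275 to 35.2 ± 5.87 CPM in 6-HD, and TXNRD1 from 201 ± 6.8 CPM in MS275 to 304 ± 22 CPM in 6-HD.

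**Figure D4:**
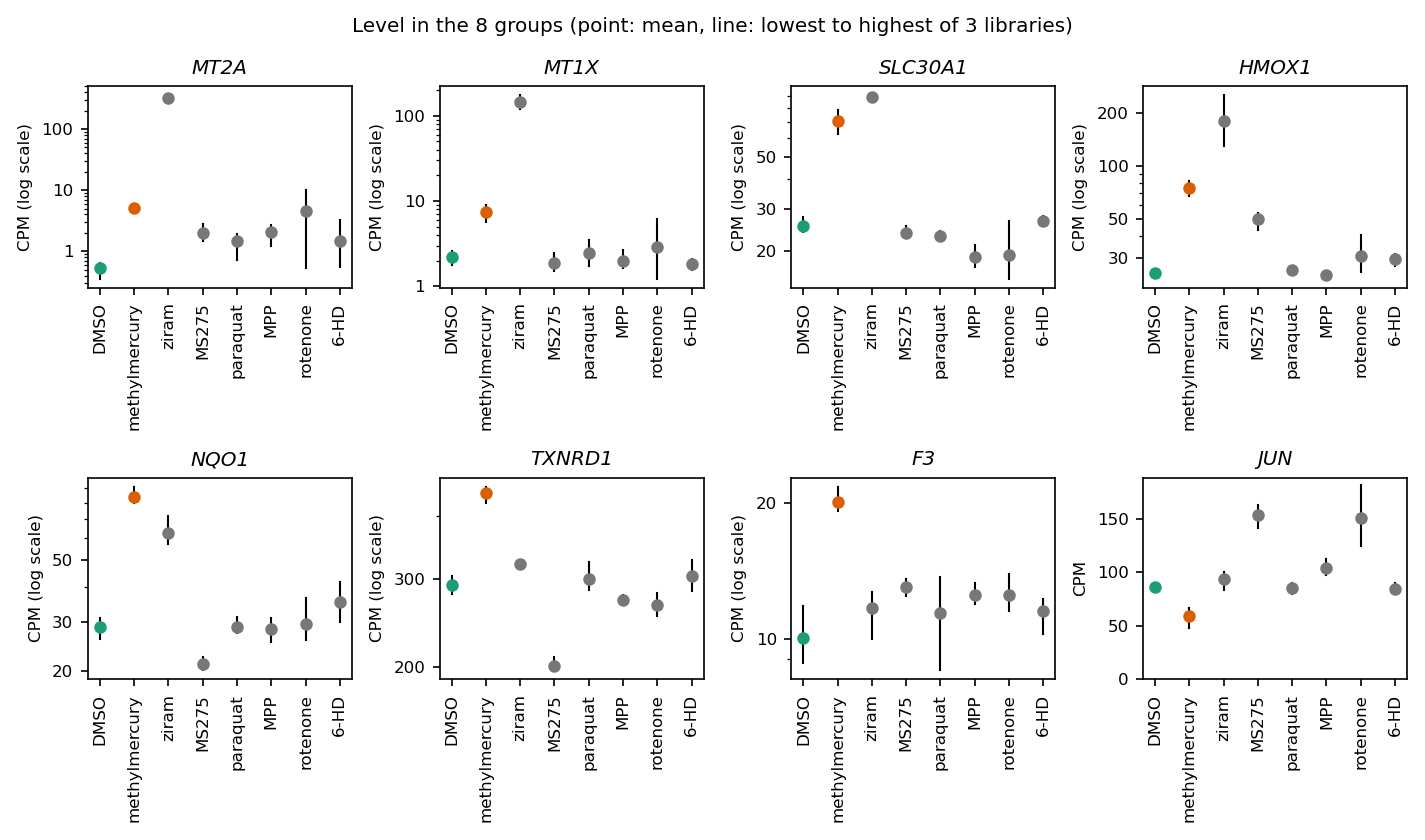
CPM (y axis, log scale except for JUN, whose axis starts at 0) of 8 genes in the 8 groups (x axis), with the mean as a point and a line from the lowest to the highest of 3 libraries. Methylmercury, in orange, has the highest mean of the 8 groups for NQO1, TXNRD1 and F3 and the lowest for JUN, and ziram has the highest for MT2A, MT1X, SLC30A1 and HMOX1.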

How the data were processed

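Raw counts per gene and normalized signal were deposited by the authors as matrices, with 1 column for each of 24 libraries and 58051 genes. Per the labels' protocols, RNA was selected for polyA transcripts and depleted of ribosomal RNA in 2 rounds. Per the submitters' processing notes, STAR, HTSeq and DESeq were used with GRCh38. The sources used here give no versions, annotation, strand setting or rule for reads with several matches. The deposited signal returned to whole counts in 100% of values within a tolerance of 0.01, and the raw counts were used for every result. There were 0 columns without a sample.

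Counts were fitted with edgeR 4.0.16 (R 4.3.3): TMM scaling, default expression filter by group (18852 genes kept), 1 coefficient for each of 8 groups over 24 libraries (16 residual degrees of freedom), quasi-likelihood F test, Benjamini-Hochberg threshold 0.05 per contrast. CPM are counts per megaread of the TMM-scaled total. Named genes were, by size of the log2 change, at most 12 in each direction among called genes with at least 2 CPM in the higher group, no overlap of libraries and no clone-type name, up to 6 and 6 more from the fit without Methyl_mercury replicate 2, up to 4 called members of each of 40 lists (762 distinct genes, all matched) or else 1 or 2 with the smallest p, and all metallothioneins; genes named besides are said to be called or are list members picked for their role. The comparison, members and lists were chosen with earlier results of these data known. Alternatives were other scalings, filters, DESeq2 1.42.0, limma 3.58.1 voom with sample weights, fits of the 2 groups alone, left-out libraries, a replicate block and GC offsets (GENCODE 29 transcripts). The edgeR, DESeq2, limma-voom and GC-offset fits were tested on simulated data. Replicates of a group differed by more than counting noise, with a chi-square per degree of freedom of 4.19 to 20.0, and none was merged. Ratios of few counts have exact 95% intervals, or a floor of 3 counts. Some genes are not reported here. Promoters are from RefSeq; Python 3.11.15, pandas 2.3.3, scipy 1.17.1 and matplotlib 3.10.9 were used.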

Additional observations from a re-analysis of the deposited data

How the results depend on the processing

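The numbers of genes called depended on the setting. Against DMSO, 42 genes were higher and 12 lower. Leaving out 1 library gave 6 to 117 higher and 0 to 53 lower. DESeq2 called 220 and 90, limma-voom with sample quality weights 819 and 861, no filter on low counts 125 and 124, and GC offsets 219 and 109. GC offsets without Methyl_mercury replicate 2 called 28 and 5, and the 2 groups alone without that library 63 and 20. All 54 genes kept their sign in the 17 alternatives, and F3, HMOX1, MT1F, NQO1, SLC30A1 and TXNRD1 were called in every one. The libraries of the groups did not overlap in these 54 genes, so leaving out a library could hardly reverse a sign.

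Against ziram, 205 genes differed; leaving out 1 methylmercury library gave 50 to 240, DESeq2 504, limma-voom 1399, no filter 334 and GC offsets 464. Against the mean of the other 6 toxicants 1591 differed; leaving out 1 methylmercury library gave 209 to 1819, leaving out MS275 749, limma-voom 4155 and GC offsets without replicate 2 633. Signs changed for PTPRC (-0.026 without Methyl_mercury replicate 1; -0.026 to 0.93 over the fits that left out 1 library) and for CSF1R, a gene near 0 reads: 0.40 and 0.42 without Methyl_mercury replicate 1 or 2, 0.38 and 0.13 without DMSO replicate 1 or 2 (-2.52 to 0.42 over all such fits), 0.0071 with library totals, 0.028 with GC offsets and 0.42 with GC offsets without replicate 2. The cause of these changes was not tested.

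The samples share only a replicate number: same-numbered deviations correlated at -0.075, -0.15 and -0.30. With the replicate block, 39 genes were higher and 9 lower against DMSO, 154 differed from ziram and 1422 from the mean of the other 6 toxicants. No methylmercury or DMSO library correlated best with the library of its own number in the other group. Depth limits the precision of genes of few reads, such as MT1M.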

Other observations

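Several listed genes outside the called set passed once the GC trend of each library was removed, in the fit with GC offsets that was chosen after seeing the data. Higher in methylmercury there were SQLE (0.26 on the log2 scale, edgeR adjusted p = 0.0139) and INSIG1 (0.23, 0.0369) of cholesterol synthesis, the chaperone HSP90B1 of the endoplasmic reticulum (0.28, 0.0133), the BH3-only gene PMAIP1 (0.60, 0.0418) and the NRF2 partner MAFG (0.35, 0.0202). HES1, a Notch target, stood at 2.28, 2.58 and 2.72 CPM in DMSO and 5.36, 7.74 and 4.44 CPM in methylmercury. It was higher by 1.21 with GC offsets (edgeR adjusted p = 0.0363, against an adjusted p of 0.107 without the offsets). Lower were the Parkinson disease genes PINK1, a mitochondrial kinase, at 37.3, 40.1 and 34.4 CPM in DMSO and 26.4, 21.9 and 29.3 CPM in methylmercury (-0.47, edgeR adjusted p = 0.0098), and ATP13A2, a lysosomal pump (-0.38, 0.0211). With GC offsets and without Methyl_mercury replicate 2, none of these 8 genes passed by edgeR, with adjusted p from 0.0923 to 0.332.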
